A study of Sus scrofa with 6 samples.

Results

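Regions that were called as accessible chromatin in every library of the series, but that lay on contigs with hardly any other region, are described here. Overlapping peaks (1 bp or more) from the 6 lists formed 1 merged region, always within a contig, a contig being an unbroken stretch of assembled sequence. A region belonged to the set if all 6 libraries had a peak in it and if its contig held at most 2 merged regions in all. This gave 971 regions, 1.90% of the 51099 merged regions and 7.35% of the 13209 regions shared by all 6 libraries. The other 12238 shared regions, on contigs with 3 or more regions, serve as the comparison. Members were thus chosen by the peak calls of the 6 lists, so their presence in every library is no result, and a call in all 6 favours strong peaks in both sets.

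The libraries came from porcine (Sus scrofa) intestinal epithelial cells, 3 of them labelled control and 3 labelled as drug stimulated, where the series names the drug as deoxyshikonin, a naphthoquinone of the shikonin family. The labels give the sample as intestine epithelium. They give no dose, time, breed, age or culture condition, and no label says that replicates are separate cultures. A p-value below therefore covers the spread of these libraries, which may be technical. No gene was tied to these contigs, so the cell type could not be checked against marker genes, and no gene, exon or promoter annotation and no sequence of the contigs was used here.

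In ATAC-seq the Tn5 transposase cuts and tags DNA that is not covered by nucleosomes or other proteins, and sequenced tags pile up over open chromatin such as promoters and enhancers. The peak caller compares the pileup at a peak's summit with a background, which is the higher of the mean over the whole genome and the mean over a window around the peak. Fold enrichment, as deposited by the authors, is the ratio of summit pileup to that background, each raised by 1. The background of each peak was solved from the deposited fold enrichment and p, and the lowest one in a list is the library's genome-wide floor, which was 1.46 to 2.57 tags. The control lists held 17169 to 25888 peaks and the deoxyshikonin lists 33295 to 39281. Height below means summit pileup over the library floor. The median pileup of a member was 30 tags, for which an exact Poisson 95% interval runs from 20.2 to 42.8, covering counting error only.

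Most members stood at the very beginning of a contig and were its only called region. Of the 971, 869 (89.5%) were the only region on their contig and 102 had 1 companion. The merged region began at base 1 of the contig for 444 members (45.7%), against 3 (0.0245%) of the shared regions elsewhere. It began within the first 1000 bp for 826 members (85.1%), against 28 (0.229%) elsewhere, and within the first 100000 bp for 97.7% against 6.47%. In 233 members the peaks of all 6 libraries began at base 1. For 207 members all 6 libraries had the same last base, which was the case for 0 of the 12238 shared regions elsewhere. Peaks ran from base 1 to 1 common last base in all 6 libraries in 157 members (16.2%), whose median width was 326 bp. Contig lengths were not used here, so whether those peaks reach the contig's end was not tested. On a short contig a region can only start near base 1, while a contig with 3 or more regions needs room for them. The rule thus bears on this contrast in position, and the part of contig length in it was not tested. Counting from the first base only, the member farthest inside a contig began at base 1508556.

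**Figure D1:**
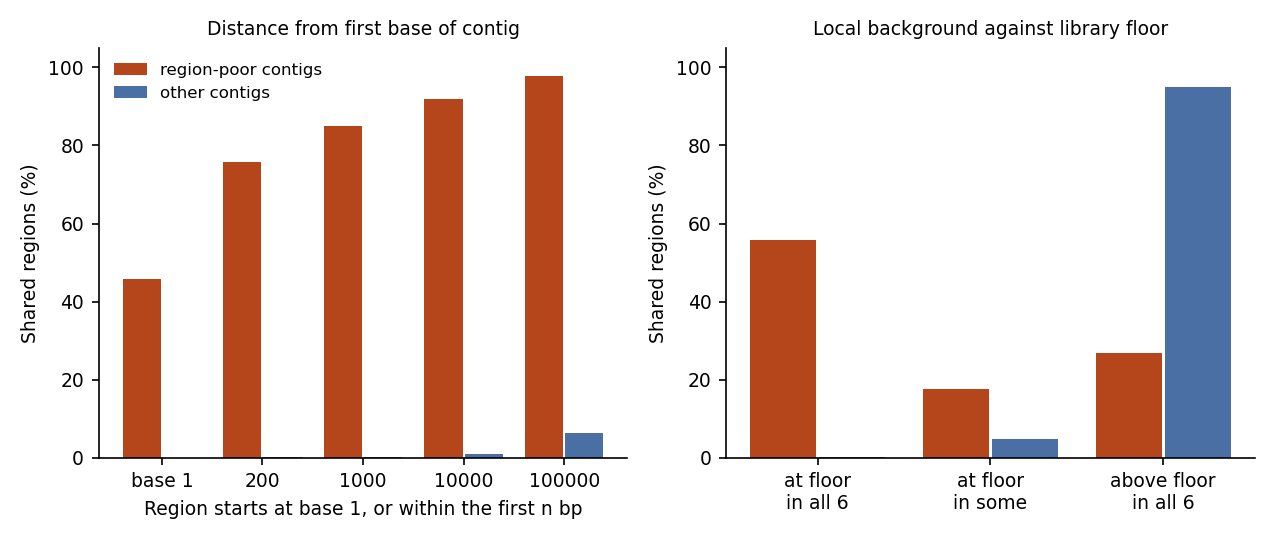
Left, the share of shared regions (%) that began at base 1 of their contig or within its first 200 to 100000 bp, for the 971 members and the 12238 shared regions on other contigs. Right, the share whose local background was at the library floor in all 6, in some or in no library. Members gather at the first bases, 85.1% within 1000 bp, and 55.7% were at the floor in all 6 libraries.

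The local background around members was at the library floor for most peaks. In each library 62.5% to 68.2% of members were at the floor (within a relative 0.001), against 0.915% to 3.82% of the shared regions elsewhere. The median local background was 1.00 times the floor in every library for members, and 1.96 to 2.53 times the floor elsewhere. In 541 members (55.7%) the background was at the floor in all 6 libraries, as in 39 (0.319%) of the others. Conversely, 260 members (26.8%) were above the floor in all 6, as were 94.9% of the others. In those 260, a median of 25.3% of the tags in the window of 10000 bp lay over the summit (10th to 90th percentile 14.6% to 62.2%), against 15.4% in the 11609 such regions elsewhere (10.5% to 21.8%). The window's mean is taken over its full length also where a contig is shorter, which lowers it there. The part this plays was not tested.

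Members had higher fold enrichments than the shared regions elsewhere, with similar or lower heights. The median fold enrichment of members was 9.35, 8.93 and 9.81 in control replicates 1 to 3, and 8.51, 8.94 and 9.80 in deoxyshikonin replicates 1 to 3. Elsewhere it was 6.44, 5.56 and 6.65 in control libraries and 6.33, 6.70 and 6.89 under deoxyshikonin. The member median was above the other in 6 of 6 libraries, and the mean of the library medians was 9.22 ± 0.523 against 6.43 ± 0.471 (SD, n = 6 libraries each). The median height of members was 15.4, 14.1 and 15.2 in control libraries and 13.1, 15.7 and 15.8 under deoxyshikonin, so the groups overlapped. Elsewhere it was 17.5, 13.6 and 17.5 in control libraries and 18.0, 21.2 and 19.9 under deoxyshikonin, with the lowest deoxyshikonin library above the highest control. Only in control replicate 2 did members stand higher than the others. The fold enrichment of members thus differed from that elsewhere in the opposite direction to the height in 5 of 6 libraries. No test was made of these differences, since regions are not replicates and strong calls chose both sets.

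Peaks in members were somewhat narrower in most libraries. The median peak width was 469.8 ± 22.4 bp in members and 576 ± 80.7 bp elsewhere (SD, n = 6 libraries each). Members were narrower in 5 of 6 libraries, the exception being control replicate 2 with 455 bp against 438 bp. Between libraries the median width of members moved from 436 to 501 bp, and that of the others from 438 to 657 bp. Merged regions of members measured 200 to 2592 bp. In 855 members (88.1%) each library had 1 peak, close to the 84.6% elsewhere, and the summits of the 6 libraries lay within a median of 120 bp, against 117 bp elsewhere.

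**Figure D2:**
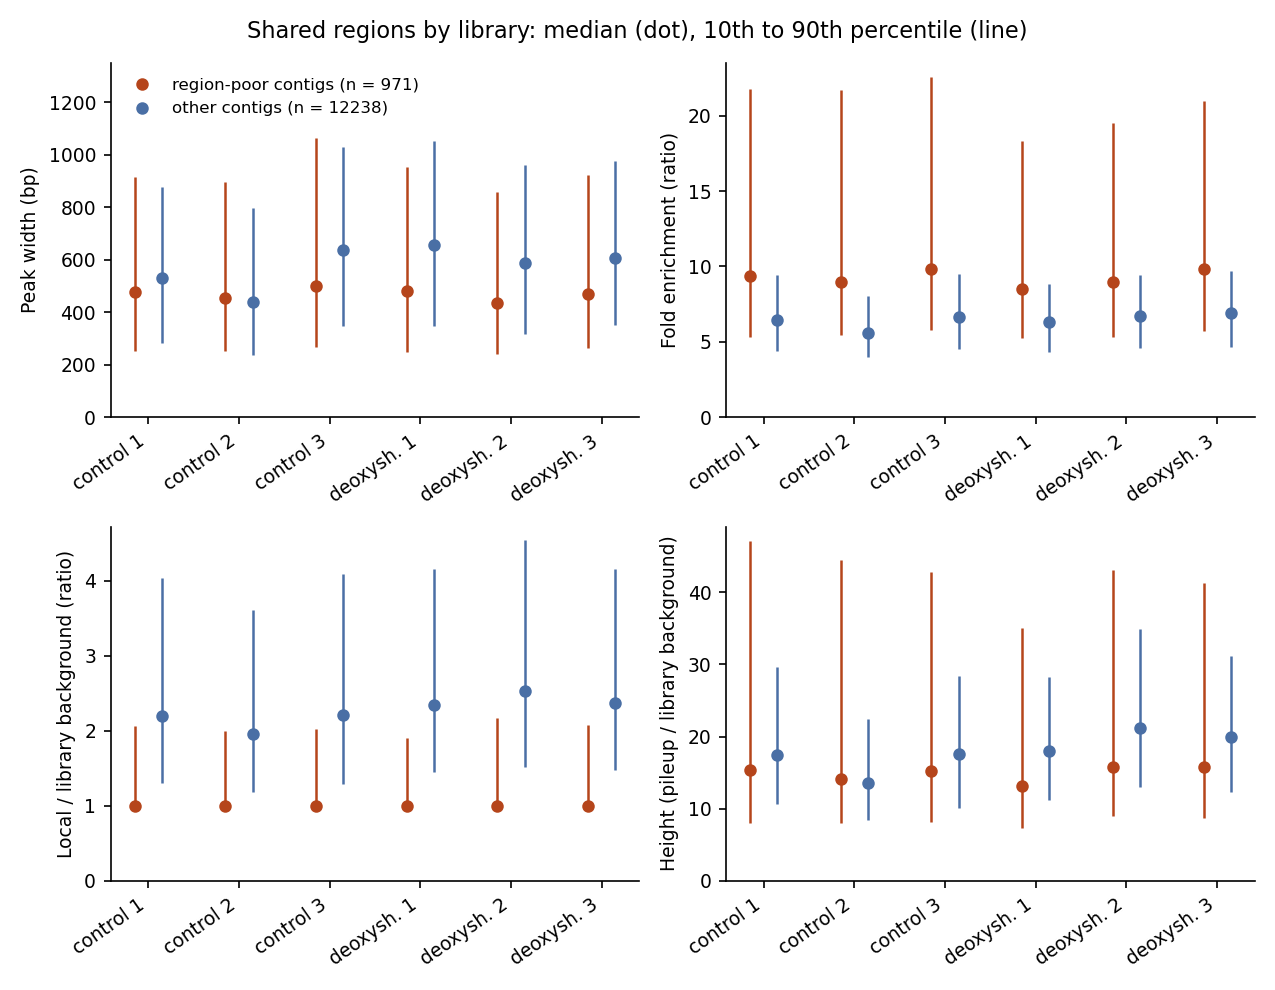
Peak width (bp), fold enrichment, local background over library floor and height in each library. Dots are medians over the 971 members or the 12238 shared regions on other contigs, and lines run from the 10th to the 90th percentile. Members sit at a background ratio of 1.00 and above the other regions in fold enrichment in all 6 libraries.

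The strongest peaks of every list were mostly members. Members held 2.59% to 5.97% of the peaks of a list, but 82, 82 and 85 of the 100 peaks with the highest −log10 q in control replicates 1 to 3, and 80, 76 and 82 of those in deoxyshikonin replicates 1 to 3. No other region on a region-poor contig was among them, but such regions lack a call in at least 1 library. A call in all 6 libraries, which the rule asks of members, favours strong peaks. The share of all peaks is thus a low baseline, and members were 7.35% of the shared regions. The best peak of the list was a member in the 3 control lists, and the highest fold enrichment, 33.4 to 38.4, was in a member in 5 of 6 lists. By the median rank members were less extreme. Their median percentile of −log10 q was 79.0 to 86.1, against 58.3 to 80.9 elsewhere.

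The 5 strongest members, by the mean percentile in the 6 lists, stood far above the median height of their libraries in all 6. The first, on contig LUXX01041727.1 at 306 to 940, was the best peak of each control list. Its height was 141, 136 and 115 in control replicates 1 to 3 and 104, 131 and 112 in deoxyshikonin replicates 1 to 3, with a fold enrichment of 22.7 ± 0.563 (SD, n = 6 libraries). The groups overlapped in these heights over the floor, and the peak was 615 to 635 bp wide in all libraries. The other 4 ran from base 1 to the same last base in every library. They were 567 bp long on LUXX01049539.1, 418 bp on LUXX01089563.1, 324 bp on LUXX01013872.1 and 281 bp on LUXX01078587.1. On LUXX01078587.1 the height was 100.1, 89.9 and 89.2 in control libraries and 68.1, 107 and 89.8 under deoxyshikonin, which overlap over the floor. Its fold enrichment of 32.4 ± 1.03 (SD, n = 6) was the highest of the 5. Divided by the library median instead, the deoxyshikonin heights were below all control heights in 4 of the 5, the exception being LUXX01049539.1. On that scale the same held for 44.9% of all members and 15.6% of all shared regions. None of the 5 passed the test for a treatment difference on that scale, described below.

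Not all members had a local background at the floor. The window also counts the peak's own tags, and how much these add was not tested. The highest local background was on LUXX01038957.1 at 40 to 2631, also the widest member with 2592 bp. There the background was 14.9, 14.8 and 13.6 times the floor in control libraries and 9.99, 10.5 and 10.5 times under deoxyshikonin, with no overlap. Its fold enrichment was only 4.74 ± 0.120 (SD, n = 6). The next was on LUXX01092574.1 at 1779 to 3440, with a background of 12.3 ± 1.11 times the floor (SD, n = 6). Contig LUXX01007172.1 held 2 of the 5, at 9270 to 10447 and at 2122 to 3524, with 9.39 ± 1.15 and 8.36 ± 1.07 times the floor (SD, n = 6 each). The summits of these 2 lay 6863.5 bp apart, so their windows of 10000 bp overlap in part and the 2 are not independent. Between them in order, the member on LUXX01081394.1 at 49111 to 50867 had 8.85 ± 1.29 times the floor (SD, n = 6).

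The other wide members were lower in height but higher in fold enrichment. That on LUXX01031701.1 at 28 to 2434 measured 2407 bp and had a height of 48.7, 47.8 and 45.2 in control libraries and 45.7, 46.5 and 43.4 under deoxyshikonin. These overlap over the floor, but over the library median they were 2.79, 3.52 and 2.64 against 2.61, 2.19 and 2.24, with no overlap. On LUXX01037173.1 at 95 to 2399 the height was 14.3, 10.8 and 12.1 in control libraries and 9.73, 9.58 and 10.2 under deoxyshikonin, and the peaks of single libraries were 326 to 2256 bp wide. The wide merged region there rests on peaks of unequal extent. The last of the 5 widest were on LUXX01092457.1 at 534 to 2755 and on LUXX01054616.1 at 145 to 2347, with fold enrichments of 7.93 ± 0.872 and 7.63 ± 1.06 (SD, n = 6 each).

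Members of middling strength looked different from each other. The member on LUXX01072353.1 at 1 to 765 had heights of 11.1, 10.3 and 12.1 in control libraries and 15.6, 21.9 and 20.4 under deoxyshikonin, with no overlap. That on LUXX01041087.1 at 1508556 to 1509744, the one farthest inside a contig, had 14.8, 11.2 and 17.1 against 11.7, 19.2 and 17.3, which overlap. On LUXX01090688.1 a peak at 1 to 206 had 17.0, 15.9 and 16.4 in control libraries and 9.73, 15.7 and 16.8 under deoxyshikonin, where deoxyshikonin replicate 1 was low and the groups overlapped. Over the library median, the scale of the treatment test below, this peak stood at 0.970, 1.17 and 0.955 in the controls against 0.556, 0.742 and 0.868, with no overlap, and was called lower (adjusted p by limma 0.0289). On that scale LUXX01072353.1 was called higher (adjusted p by limma 0.0408), and LUXX01041087.1 still overlapped.

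Only 14 contigs held 2 members, and 74 further members had a companion region that was missing from at least 1 library. Of these 74 companions, 37 were seen in 1 library only and 10 in 5. Members with a companion had a median fold enrichment of 7.37 and a background of 1.51 times the floor, against 9.70 and 1.00 times for members alone on their contig (medians over regions of the mean of 6 libraries). The 55 shared regions on contigs with 3 regions, just outside the limit, had 7.56 and 1.99 times. The 280 regions on region-poor contigs that missed 1 library had a median height of 8.45 and fold enrichment of 5.81, against 15.2 and 9.33 for members. The rule itself favours this contrast, since a missed call goes with a weak peak, so it is no result. The means of the 280 cover only the libraries with a peak. The pair of members farthest apart lay on LUXX01081394.1, with summits 269490 bp from each other. Its member at 319906 to 320250 had heights of 44.0, 44.5 and 33.5 in control libraries and 57.9, 84.9 and 67.3 under deoxyshikonin, with no overlap.

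Under deoxyshikonin, members stood lower among the shared regions than in the controls. The comparison asks whether peak height differed between the groups at regions called in all libraries. Whether the pileup over members reflects open chromatin was not tested, as no sequence or contig length was used. Heights were put on a log2 scale, centred on the median of all shared regions in each library, and tested with limma over all 13209 shared regions with Benjamini-Hochberg adjustment at 0.05. Relative to that library median, the median member stood at 0.879, 1.03 and 0.886 in control replicates 1 to 3 and at 0.750, 0.742 and 0.816 in deoxyshikonin replicates 1 to 3, so all deoxyshikonin libraries were below all controls. By limma 352 members (36.3%) were lower under deoxyshikonin, where 7.71% of all shared regions were. In the other direction 32 members (3.30%) were higher, where 6.68% of all shared regions were. The median log2 change was −0.35 over members and −0.02 over all shared regions. Heights did not overlap between the groups, with deoxyshikonin lower, in 436 members (44.9%), against 15.6% of all shared regions, and with deoxyshikonin higher in 59 (6.08%), against 13.5%. Members made up 34.6% of all 1018 regions called lower.

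How many members count as lower rests on the scaling, while their median distance from the other regions is the same under any constant per library. Scaled by the library floor alone, all shared regions stood 0.25 higher under deoxyshikonin at the median (log2) and members −0.07. Then 46 members (4.74%) were lower by limma, against 0.545% of all shared regions, and 53 (5.46%) were higher, against 12.6%. These 46 made up 63.9% of the 72 regions called lower in that fit. All 46 were also among the 352, which is no separate support, since these 2 scalings differ only by a constant per library. Under either scaling the median change of members minus that of the shared regions elsewhere was −0.34 on the log2 scale. With 1 library left out, this difference ran from −0.24 without control replicate 2 to −0.40 without control replicate 3. With the authors' fold enrichment in place of height this difference was −0.17, and 179 members (18.4%) were lower and 34 (3.50%) higher by limma, against 3.01% and 2.05% of all. Centred on the members' own median, a scaling chosen after the data were examined, 119 members (12.3%) were lower and 88 (9.06%) higher. Of all shared regions 1.42% were lower and 23.4% higher in that fit. Under all 4 scalings 40 members (4.12%) were lower and 24 (2.47%) were higher. Of the 12238 shared regions elsewhere 13 (0.106%) were lower and 202 (1.65%) higher under all 4. All scalings but fold enrichment differ only by a constant per library, so these 4 are not separate checks. The library floor, which follows sequencing depth, was 1.89, 2.13 and 2.57 tags in control replicates 1 to 3 and 2.06, 1.46 and 1.96 in deoxyshikonin replicates 1 to 3, and the part of depth in the result was not tested.

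**Figure D3:**
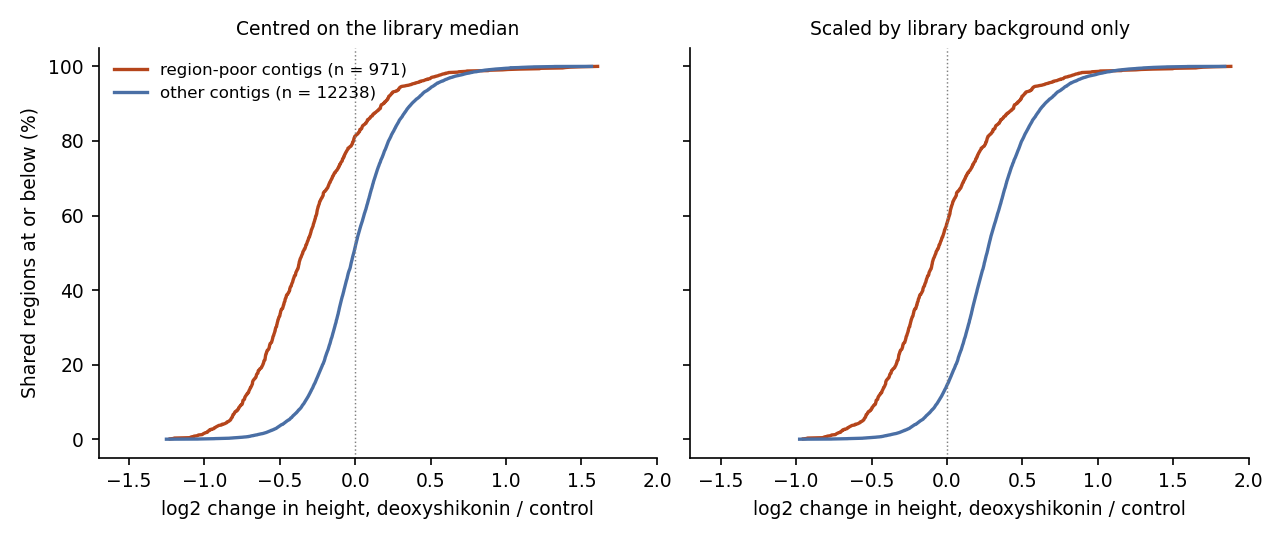
Cumulative share of shared regions (%) against the log2 change in height, deoxyshikonin over control, from limma with 3 libraries per group. The left panel is centred on the library median and the right panel scaled by library floor alone. The curve of the 971 members lies to the left of that of the 12238 other shared regions in both, with medians of −0.35 and −0.01 on the left and −0.07 and 0.27 on the right.

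With heights centred on the library median, the lower calls were most frequent among members at the first base of a contig and among tall members. Of the 444 members that began at base 1, 245 (55.2%) were lower and 15 (3.38%) higher by limma. Of all shared regions 7.71% were lower and 6.68% higher. Scaled by the library floor alone, 30 (6.76%) of the 444 were lower and 21 (4.73%) higher, against 0.545% and 12.6% of all. The median height of the 444 over the library median was 1.24, 1.55 and 1.25 in control libraries and 0.917, 0.968 and 1.07 under deoxyshikonin. Of the 233 whose peaks began at base 1 in all 6 libraries, 69.5% were lower, and of the 157 that also had the same last base in all 6, 71.3%. The 145 members that began beyond the first 1000 bp had 17.2% lower and 5.52% higher, and their median stood at 0.879, 0.897 and 0.886 in control libraries and 0.917, 0.839 and 0.842 under deoxyshikonin, which overlap. Of the 22 beyond 100000 bp, 0 were lower and 1 was higher by limma, with the same counts at an unadjusted p under 0.05. Split by mean height into 4 classes of equal number, members were lower in 9.88%, 24.7%, 45.0% and 65.4% of cases from the lowest class to the highest. Among the shared regions elsewhere these shares were 4.12%, 4.97%, 6.24% and 6.44%. Over the library floor alone they were 0.823%, 2.47%, 8.26% and 7.41% for members. Elsewhere they were 0.163%, 0.163%, 0.229% and 0.294% on that scale. Height and start at base 1 go together, with a median height of 29.2 in the 233 members that began there in all libraries, and their parts were not told apart. These splits were chosen after the data were examined, and no test was made between them.

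Across contigs, with heights centred on the library median, the share of regions lower did not end at the limit of 2 regions. It was 38.3% of the 869 shared regions alone on a contig, 18.6% of the 102 on contigs with 2 regions, 43.6% of the 55 on contigs with 3, and 11.5% of the 130 on contigs with 4 to 5. It was 6.42% on contigs with 6 to 20 regions, 4.46% on those with 21 to 59 and 5.41% on those with 60 or more. In the same order, 3.11%, 4.90%, 1.82%, 10.8%, 6.61%, 7.35% and 6.75% were higher. Over the library floor alone, 4.95% were lower and 5.41% higher with 1 region, and 2.94% and 5.88% with 2. With 3 regions these were 3.64% and 7.27%, with 4 to 5 they were 2.31% and 16.2%, and over all shared regions 0.545% and 12.6%. The 39 shared regions elsewhere with a background at the floor in all 6 libraries had 6 (15.4%) lower and 1 higher, against 34.4% and 1.48% for the 541 such members.

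**Figure D4:**
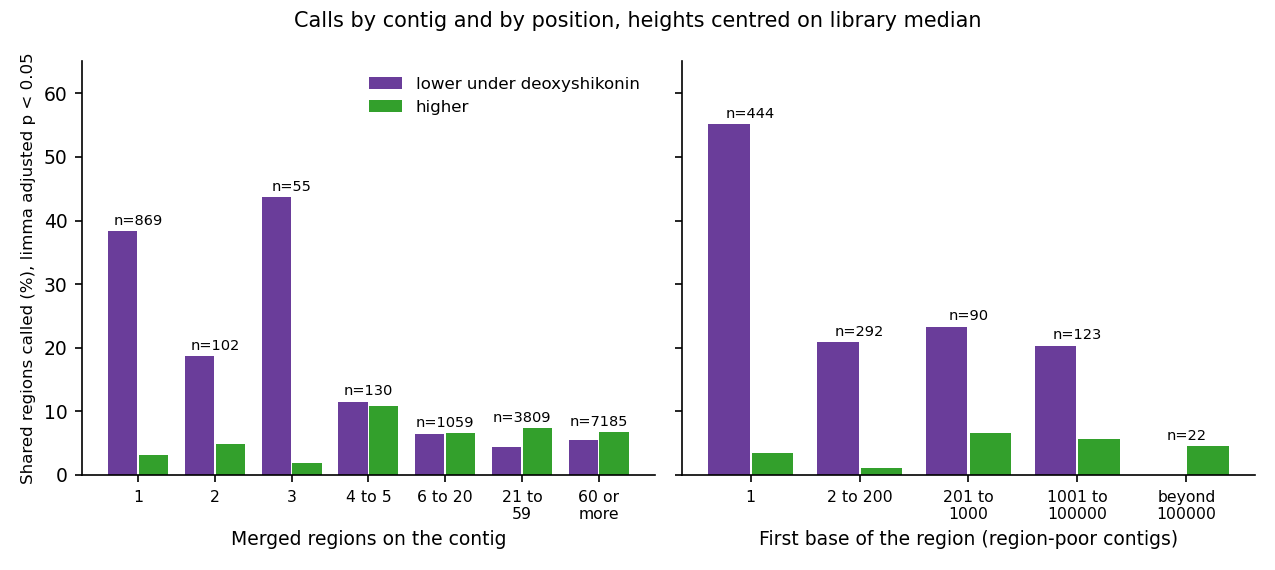
Share of shared regions (%) called lower or higher under deoxyshikonin by limma (adjusted p below 0.05, heights centred on the library median), by the number of regions on the contig (left) and, for members, by the first base of the region (right). Lower calls reach 55.2% for members that began at base 1 and 5.41% on contigs with 60 or more regions.

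The clearest decrease among members, by adjusted p, was on LUXX01015859.1 at 203 to 884. Its height over the library median was 1.82, 2.34 and 1.66 in control replicates 1 to 3 and 0.861, 0.677 and 0.947 in deoxyshikonin replicates 1 to 3, and the log2 change was −1.23 (SE 0.140, adjusted p by limma 8.27e-11). Its fold enrichment went from 17.5 to 20.2 in the controls to 8.94 to 12.5 under deoxyshikonin, while the width stayed at 620 to 678 bp. On LUXX01050944.1 at 1 to 498, where peaks of all libraries covered the same 498 bp, the relative height was 2.73, 3.03 and 2.16 in control libraries and 1.14, 1.23 and 1.47 under deoxyshikonin (log2 change −1.04, SE 0.125, adjusted p by limma 3.05e-10). The other named decreases were on LUXX01088941.1 at 77 to 579, LUXX01029127.1 at 527 to 997 and LUXX01040333.1 at 1 to 468, with log2 changes of −0.93, −1.01 and −0.98. On LUXX01040333.1 the relative height was 2.03, 2.59 and 1.91 in control libraries and 0.972, 1.06 and 1.26 under deoxyshikonin, with no overlap. These 5 were lower by limma under all 4 scalings, but were picked by smallest adjusted p, so this is no separate support. Their lowest percentile of −log10 q in a deoxyshikonin list was 75.9.

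On this scale increases were fewer than decreases, which was not so over the library floor (53 and 46). On LUXX01086157.1 at 929 to 2019 the relative height was 0.758, 0.828 and 0.636 in control libraries and 1.72, 1.97 and 2.13 under deoxyshikonin, which is 1.39 on the log2 scale (SE 0.141, adjusted p by limma 1.10e-12). The peak there was 434 to 567 bp wide in control libraries and 974 to 1060 bp under deoxyshikonin. On LUXX01010032.1 at 1 to 584 the relative height was 0.515, 0.621 and 0.455 in control libraries and 1.31, 1.58 and 1.58 under deoxyshikonin, which is 1.5 on the log2 scale (SE 0.172, adjusted p by limma 8.27e-11). Its peaks began at bases 95, 162 and 57 in control libraries and at 1, 13 and 1 under deoxyshikonin, and the deoxyshikonin peaks thus reached closer to the first base. A like pattern was seen on LUXX01056686.1 at 1 to 559, where the control peaks began at 57, 56 and 29 and the deoxyshikonin peaks all at 1. It changed by 1.42 on the log2 scale. The member on LUXX01046077.1 at 29526 to 30645 changed by 1.61 on the log2 scale, and its peaks were 200 to 469 bp wide in control libraries and 782 to 978 bp under deoxyshikonin. The last was on LUXX01005038.1 at 55101 to 56048, which changed by 1.38 and had peaks of 259 to 523 bp in control libraries and 775 to 948 bp under deoxyshikonin. These 5 were higher by limma under all 4 scalings, and in each the groups did not overlap. Having been picked by smallest adjusted p, they give no separate support by either.

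**Figure D5:**
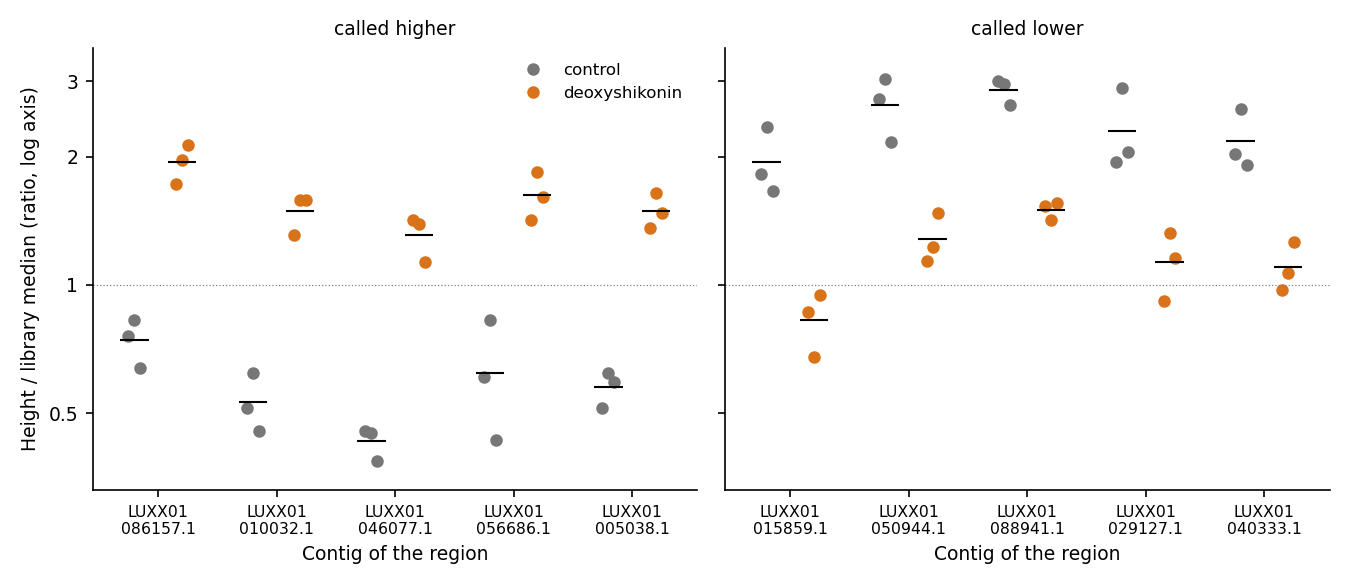
Height over the library median (ratio, log axis) in each library for the 5 members with the smallest adjusted p among those higher (left) and lower (right) under deoxyshikonin. Points are libraries (3 control, 3 deoxyshikonin), bars are group means, and the dotted line marks the library median. The groups do not overlap in any of the 10 members, which were picked by smallest adjusted p, so this is no separate result.

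Heights of members were well ordered between libraries. Log2 heights correlated across the 971 members at 0.949 to 0.962 between control libraries, 0.939 to 0.946 between deoxyshikonin libraries and 0.846 to 0.909 between the groups. Across the 12238 shared regions elsewhere these ranges were 0.856 to 0.879, 0.867 to 0.872 and 0.750 to 0.782. The values are across regions of the same libraries, which are not independent, and members cover a wider range of heights, with a 10th to 90th percentile of 7.95 to 47.2 against 10.6 to 29.7 in control replicate 1. The spread of single members between replicates was larger than elsewhere. The median SD of log2 height over 3 libraries was 0.23 in control libraries and 0.18 under deoxyshikonin for members, and 0.16 and 0.15 elsewhere.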

How the data were processed

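The data are 6 narrowPeak lists, 1 per library (3 control, 3 deoxyshikonin), so peaks were not called on pooled reads. Per the submitters' processing notes reads were handled with bcl2fastq (2.17) and Trim Galore (version 0.6.6), Bowtie2 (version 2.4.2) is named as aligner and MACS2 (version 2.1.0) as peak caller, and deepTools is also named. Their settings and the genome build: not given in the sources used here. The authors deposited, per peak, a fold enrichment (a ratio to the local background), a −log10 p and −log10 q, and a score, which is 10 times the −log10 q cut to a whole number. Start, end and summit positions, as deposited, are printed counted from 1.

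With no control sample, MACS2 gives fold enrichment as (pileup + 1) / (background + 1) and p as a Poisson tail, so both were solved for each peak. The solution matched the deposited −log10 p within a relative 7.22e-06 in every list. Simulated peaks were recovered in 100% of 3877 cases. Backgrounds above the floor were whole multiples of 0.02 within 0.001 in 100% of peaks, which corresponds to tags of 200 bp counted over 10000 bp. The total number of reads is unknown.

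Where a library had several peaks in a region, the one with the highest −log10 q was used. Heights (log2) were tested with limma (trend) over all shared regions. In simulated heights of the 13209 shared regions, with 100 regions changed at each fold, limma found 22% of the 1.5-fold changes and 78% of the 2-fold changes. It made 4 false calls. The regions named were, among members, the 5 of highest mean percentile, highest local background and largest width, the 3 nearest the median height, the 5 of smallest adjusted p in each direction, and the pair farthest apart. The members, measures and rules were chosen with earlier results of these data known. Alternatives were another peak threshold, overlap, contig limit, list length, scaling and height measure, no trend, each library left out, and a block for the replicate number. Replicate numbers are not said to pair libraries. Tests ran in limma 3.58.1 under R 4.3.3. All else ran in Python 3.11.15 with scipy 1.17.1, pandas 2.3.3, numpy 2.4.6 and, for plots, matplotlib 3.10.9.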

Additional observations from a re-analysis of the deposited data

How the results depend on the processing

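The number of members (971) was 987 to 1066 with any 1 library left out. It was 701 in lists of equal length, 759 with 50% coverage as presence and 867 with −log10 q of at least 5. With a limit of 1 region per contig it was 869, and with a limit of 5 it was 1156. The width and background ratios each moved by less than their SD over libraries under all 11 alternatives run for them. The log2 ratio of median fold enrichment, members over others, was 0.52, and 0.63 with 50% coverage as presence and 0.71 in lists of equal length (0.48 to 0.52 leaving out libraries). The share of members starting in the first 1000 bp, 85.1%, was 88.8% with 50% coverage, 75.6% in equal lists, 92.5% on contigs with at most 1 region, 72.7% with at most 5, and 82.9% to 84.8% leaving out libraries. The cause was not tested. Members called lower (352) numbered 46 scaled by the library floor, 179 with fold enrichment as height and 119 centred on the members. Of all shared regions 0.545%, 3.01% and 1.42% were lower in these fits. Leaving out libraries, 251 to 371 members (24.0% to 37.6%) were lower, lowest without control replicate 2. Of all shared regions 5.12% to 6.44% were then lower. Members called higher (32) numbered 53 scaled by the floor, where they outnumbered the lower ones, 88 centred on the members and 22 to 39 leaving out libraries. With a replicate block 349 (35.9%) were lower and 32 (3.30%) higher, against 7.41% and 6.47% of all shared regions. The numbers showed no clear pairing, since same-numbered libraries had correlations of −0.0137 to 0.00339 in their deviations from group means, and 0 of 3 controls correlated best with their own number. Members had to be called in every library, so regions of this kind without a peak in 1 or more libraries are not among them.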

Other observations

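The members made up 33.2% of the 2926 regions on the 2644 contigs with at most 2 regions, and shared regions made up 25.4% of the 48173 regions on other contigs. The regions of region-poor contigs that were called in some libraries only leaned less to deoxyshikonin than those elsewhere, as counts. On region-poor contigs 123 (4.20%) were called in the 3 deoxyshikonin libraries and no control, and 61 (2.08%) in the 3 controls and no deoxyshikonin library. On other contigs these numbered 5942 (12.3%) and 124 (0.257%). A further 264 regions (9.02%) of region-poor contigs had a peak in each of the 3 controls but only in 1 or 2 libraries with deoxyshikonin, against 167 (5.71%) the other way round. On other contigs the order was the opposite, with 745 (1.55%) and 5512 (11.4%). Every deoxyshikonin list was longer than every control list (33295 to 39281 against 17169 to 25888 peaks), which bears on all these counts. No test was made of these differences.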
